A study of Mus with 18 samples.

Results

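The genes described here encode subunits of the transcription factor NF-kB and proteins that act back on its pathway. They were chosen by Ensembl gene ID from a fixed list of 10 among the 55416 IDs in the count tables, and all 10 passed the filter on low counts in every comparison. Nfkb1 (ENSMUSG00000028163), Nfkb2 (ENSMUSG00000025225), Rel (ENSMUSG00000020275) and Relb (ENSMUSG00000002983) encode subunits. Nfkbia (ENSMUSG00000021025) and Nfkbie (ENSMUSG00000023947) encode cytoplasmic inhibitors, Nfkbiz (ENSMUSG00000035356) and Bcl3 (ENSMUSG00000053175) nuclear members of the inhibitor family, and Tnfaip3 (ENSMUSG00000019850) and Birc3 (ENSMUSG00000032000) enzymes that edit or attach ubiquitin on signaling proteins upstream. The fifth subunit gene, Rela, is not among them and is not analysed here.

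RNA sequencing was performed on mouse lens capsules with their attached lens epithelial cells (LECs), the cells that stay behind when the lens fiber cells are taken out in cataract surgery. The 18 libraries form 6 groups of 3: wild type (WT), Egr1KO and FosBcKO mice, each at 0 h and at 6 h post cataract surgery (PCS), the modelled operation in which the fiber cells are removed. All mice were labelled C57BL/6, were 3 to 5 months old and, by the paper, of both sexes. The paper gives the Egr1KO mice under a stock name that joins B6N with a second strain. It describes the cre line as obtained on FVB/N and backcrossed to C57BL/6. A part of strain background in differences between genotypes was not tested. Egr1KO mice are homozygous for a systemic Egr1 knockout, made by a neo cassette inserted in exon 2. FosBcKO mice carry a Fosb allele with floxed exons 2 and 3, deleted by the MLR10-cre transgene under a modified alpha-A crystallin promoter, so that cells outside the lens keep the gene. Each library pooled capsules of 5 mice. In each mouse the second eye was operated 6 h after the first and both capsules were then collected, so the 0 h capsules came from animals with an injured fellow eye. Whether pools of the same number held the same mice is not stated, and p-values measure the spread between pools. The genotype labels were not checked against the counts of Egr1 and Fosb, since no table used here paired these IDs with gene names. The labelled cell type was not checked against marker genes for the same reason.

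In resting cells NF-kB dimers are held in the cytoplasm by inhibitor proteins of the IkB family. Cytokine, Toll-like receptor or damage signals lead to destruction of the inhibitor, and the dimers then enter the nucleus and raise the transcription of cytokines, chemokines and survival genes. Several pathway components are themselves known targets. Newly made inhibitor and the ubiquitin editor Tnfaip3 shut the pathway down again, while newly made subunits and the nuclear cofactors Nfkbiz and Bcl3 change which later targets are transcribed. Cytokine release by LECs after surgery is of interest because it accompanies ocular inflammation.

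The libraries held 9609295 to 13871592 read pairs counted in genes. Levels are given as CPM, read pairs of a gene per 1000000 counted in genes in that library, which are not corrected for transcript length, so that levels are compared between libraries and not between genes. The members had between 4 and 7741 read pairs per library, and the 6 of 180 values under 30 read pairs were all from Bcl3. Read pairs outside annotated genes moved with time: they made up 8.034% to 20.89% of read pairs per library at 0 h and 20.03% to 30.47% at 6 h, and their part in the results below was not tested. In bulk capsules a larger share of a cell type and more RNA per cell cannot be told apart. No file used here gives the members' sequences.

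**Figure D1:**
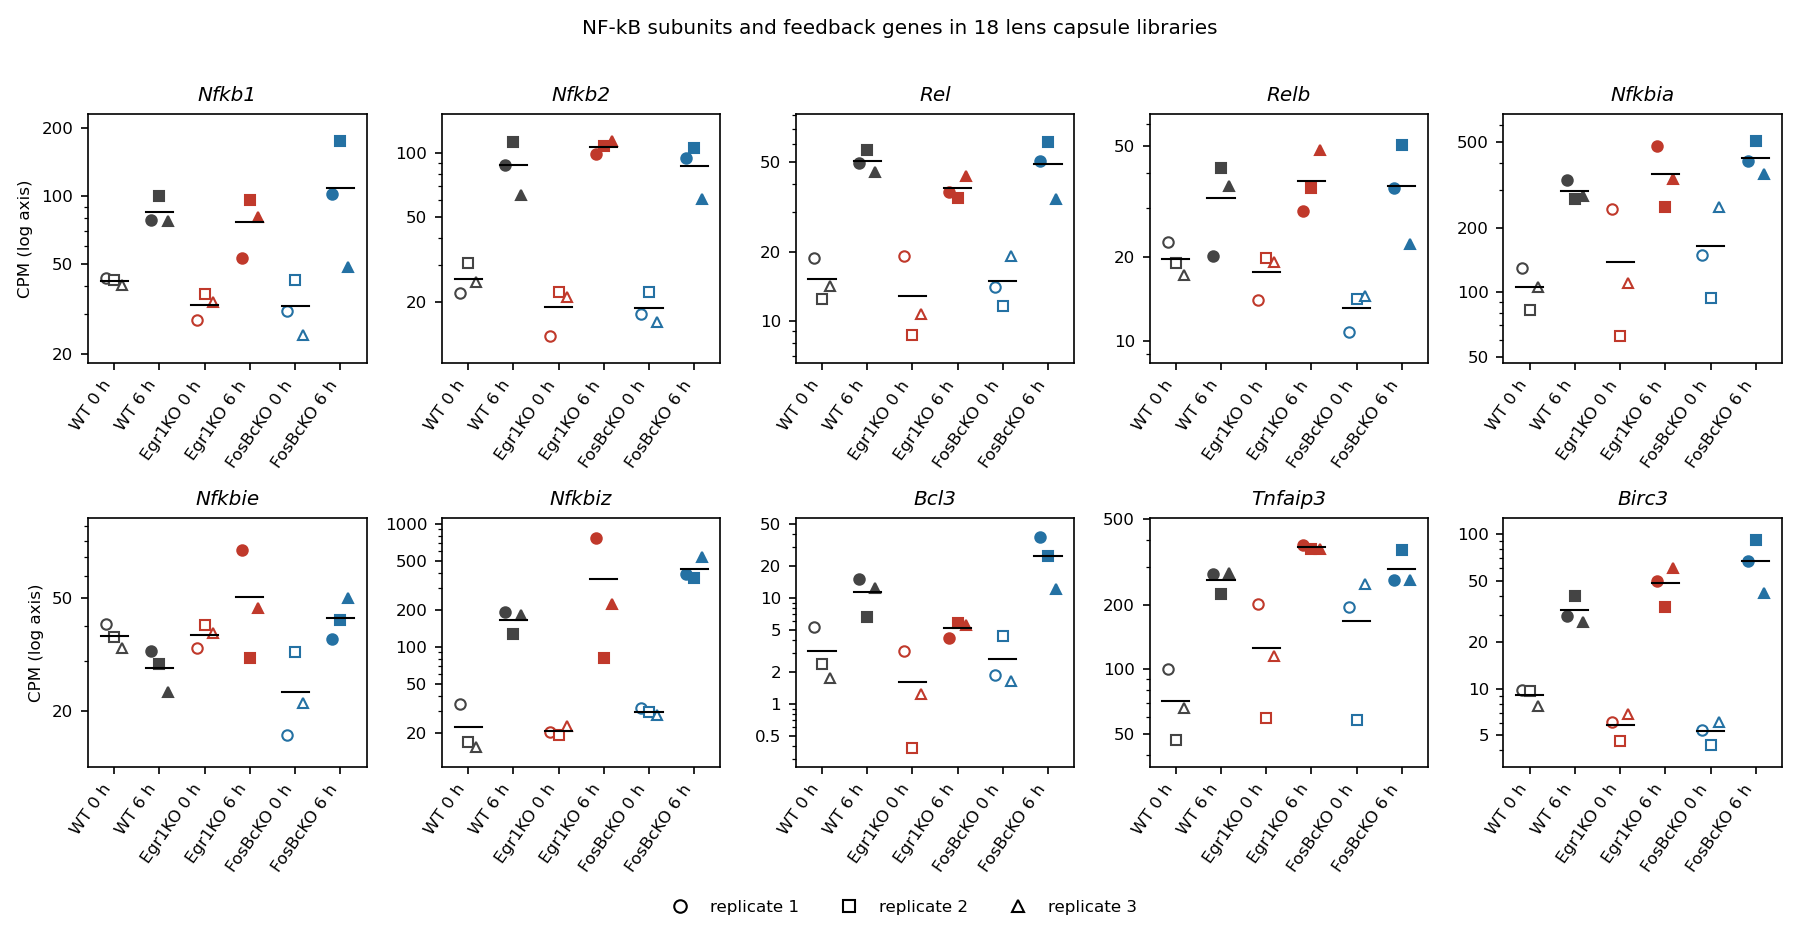
CPM of each gene on a log axis (a panel per gene, each with its own axis) in the 6 groups. Open symbols are 0 h and filled symbols 6 h libraries, the symbol shape is the replicate number and the line the group mean of 3 libraries. In every gene but Relb and Nfkbie the 6 h libraries lie above the 0 h libraries in every genotype, while Nfkbie in WT lies lower at 6 h.

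The response of the genes to lens injury was measured within each genotype, as the 6 h PCS libraries against the 0 h libraries. In WT, 7 of the 10 genes rose (edgeR quasi-likelihood F-test, called at a false discovery rate, FDR, of at most 0.05 over all genes and more than 2-fold), where 17.1% of all 15440 genes tested were called and 13.5% were called higher. In Egr1KO, 7 rose beside 12% of all genes called and 9.28% called higher, and in FosBcKO 8 rose beside 13.1% called and 11.2% called higher. No member was called lower in any genotype. The median log2 fold change of the 10 genes was 1.65 in WT, 1.62 in Egr1KO and 1.74 in FosBcKO, against -0.022, 0.00299 and 0.0479 over all genes tested. Nfkb2, Rel, Nfkbiz and Birc3 rose in all 3 genotypes. Nfkb1, Relb, Nfkbia, Bcl3 and Tnfaip3 were called in 2 of the 3, and Nfkbie in none. The 3 comparisons share no library. All libraries at 6 h lay above all libraries at 0 h for 8 of the 10 genes in WT, 9 in Egr1KO and 10 in FosBcKO, where the shares of all genes tested were 28.2%, 18.1% and 22.8%. The count of 7 in Egr1KO was 3 without the 0 h replicate 3 library and 4 without the 6 h replicate 3 library. The share of all genes called was not recorded with a library left out. Whether these falls are particular to the members is therefore not known. The count was 8 by the edgeR exact test (15.9% of all genes called), 9 by DESeq2 (16.1%) and 9 in one fit of all libraries (13.7%). With no filter on low counts it was 5 (6.94%), and Nfkbiz (edgeR FDR 0.0901) and Tnfaip3 (edgeR FDR 0.156) lost their calls.

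**Figure D2:**
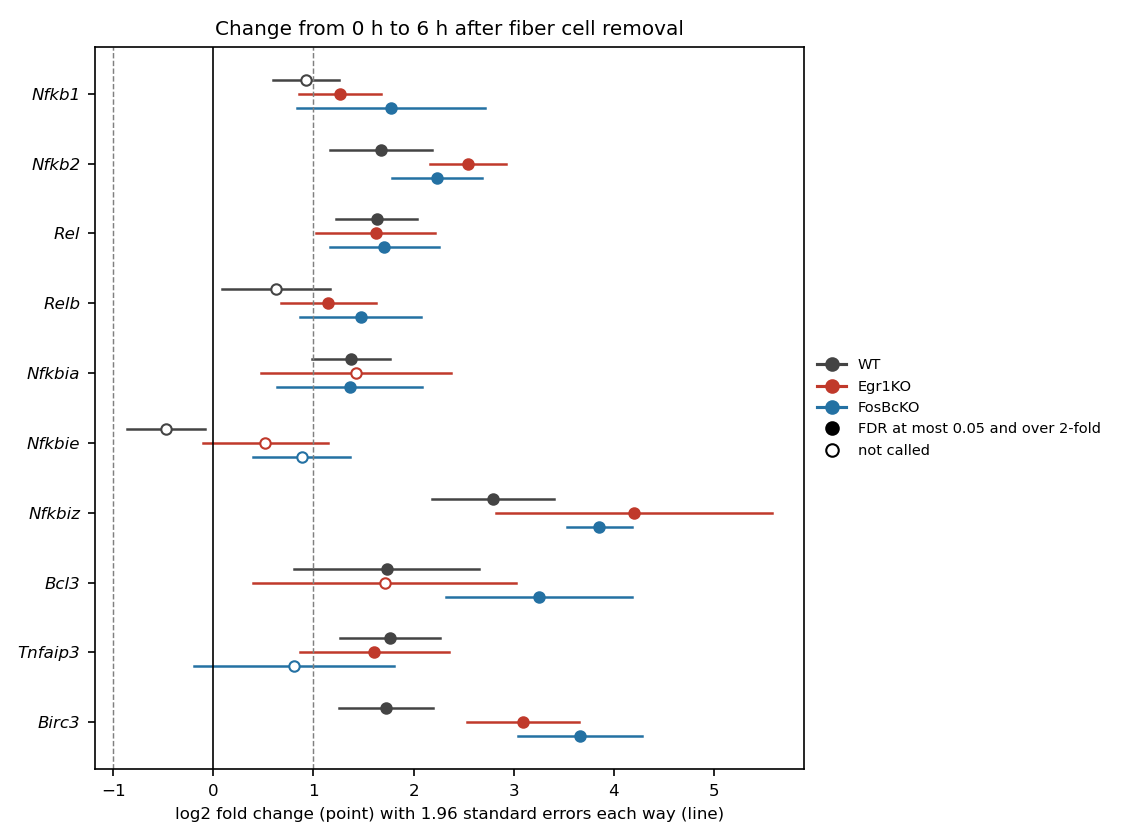
Change from 0 h to 6 h PCS of each gene in WT, Egr1KO and FosBcKO, as the log2 fold change (point) with 1.96 standard errors each way (line); 3 libraries at each time. Filled points pass both thresholds, and dashed lines mark 2-fold. A line that does not cross 0 is not by itself a call. Nfkbiz has the highest point in every genotype, at 2.80, 4.20 and 3.86, and Nfkbie the lowest in WT and Egr1KO.

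Nfkb2 encodes a precursor that is processed into a subunit of the slower, non-canonical branch of the pathway. Nfkb2 in WT was at 22.2, 30.4 and 24.9 CPM at 0 h and at 87.5, 113 and 63.5 CPM at 6 h (replicates 1, 2 and 3, in this order throughout). Nfkb2 in Egr1KO went from 13.9, 22.3 and 21.2 CPM to 99.0, 108 and 114 CPM, and in FosBcKO from 17.7, 22.4 and 16.2 CPM to 94.5, 106 and 61.1 CPM. Every 6 h library was above every 0 h library of its genotype. It rose 3.19-fold in WT (log2 fold change 1.67 ± 0.258 SE, edgeR FDR 0.00402), 5.83-fold in Egr1KO (2.54 ± 0.196, edgeR FDR 0.000596) and 4.70-fold in FosBcKO (2.23 ± 0.228, edgeR FDR 0.000604). These calls held when any library was left out.

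Nfkb1 encodes the precursor of the canonical subunit that partners Rela or Rel. Nfkb1 was at 43.4, 42.6 and 40.3 CPM in WT at 0 h and at 78.3, 100.4 and 78.1 CPM at 6 h. In Egr1KO the values were 28.1, 36.9 and 34.0 CPM and then 53.4, 96.3 and 81.1 CPM. FosBcKO libraries held 31.1, 42.7 and 24.1 CPM of it at 0 h and 103, 175 and 48.4 CPM at 6 h, the widest spread at 6 h of the 3 genotypes. The groups did not overlap between times in any genotype, and FosBcKO replicate 3 was the lowest of all 6 h libraries. The gene rose 2.41-fold in Egr1KO (log2 1.27 ± 0.209 SE, edgeR FDR 0.00785) and 3.42-fold in FosBcKO (1.78 ± 0.479, edgeR FDR 0.045). In WT the change of 1.90-fold (0.92 ± 0.17, edgeR FDR 0.00741) was under the fold minimum, and it was 1.04 on the log2 scale with edgeR FDR 0.00138 without the 6 h replicate 3 library. The FosBcKO call was lost without any 0 h library (edgeR FDR 0.1, 0.0867 and 0.121), without 6 h replicate 1 (edgeR FDR 0.177) and without 6 h replicate 2, where the log2 change was 1.12 (edgeR FDR 0.0501).

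Rel encodes c-Rel, a subunit best known from lymphocytes. Rel in WT was at 18.9, 12.4 and 14.3 CPM at 0 h and at 49.6, 56.5 and 45.0 CPM at 6 h. Egr1KO held 19.3, 8.64 and 10.7 CPM of Rel, then 36.8, 34.8 and 43.1 CPM. FosBcKO held 14.1, 11.6 and 19.2 CPM, then 50.3, 61.4 and 34.5 CPM. No 0 h library reached any 6 h library. Its rise was close in size across the genotypes: 1.63 ± 0.209 (SE) on the log2 scale in WT (edgeR FDR 0.00221), 1.62 ± 0.303 in Egr1KO (edgeR FDR 0.0115) and 1.71 ± 0.278 in FosBcKO (edgeR FDR 0.00545). In Egr1KO the edgeR FDR was 0.0668 without 0 h replicate 3 and 0.0535 without 6 h replicate 3.

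Relb encodes the partner of the processed Nfkb2 product in the non-canonical branch. Relb in WT was at 22.7, 19.1 and 17.3 CPM at 0 h and at 20.3, 41.7 and 36.1 CPM at 6 h, so that replicate 1 at 6 h lay among the 0 h libraries. The knockouts showed no such overlap: Egr1KO went from 14.0, 19.9 and 19.2 CPM to 29.2, 35.5 and 48.4 CPM, and FosBcKO from 10.8, 14.2 and 14.5 CPM to 35.5, 50.5 and 22.3 CPM. The WT change of 0.62 ± 0.276 (SE, log2; edgeR FDR 0.126) was not called. Relb rose 2.22-fold in Egr1KO (1.15 ± 0.244, edgeR FDR 0.0166) and 2.77-fold in FosBcKO (1.47 ± 0.308, edgeR FDR 0.0125). The Egr1KO call was lost without any 0 h library (edgeR FDR 0.0673, 0.0534 and 0.0659) and without 6 h replicate 3 (edgeR FDR 0.0618).

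Nfkbia encodes IkB alpha, the inhibitor that is destroyed and remade in each round of signaling. Nfkbia in WT was at 129.8, 82.6 and 106 CPM at 0 h and at 333, 273 and 282 CPM at 6 h. Egr1KO libraries held 244, 62.2 and 110.4 CPM at 0 h and 478, 249 and 339 CPM at 6 h. FosBcKO libraries held 149.6, 93.5 and 250.3 CPM and then 408, 509 and 355 CPM. Times did not overlap in any genotype, though Egr1KO replicate 1 at 0 h lay just under Egr1KO replicate 2 at 6 h. Nfkbia rose 2.60-fold in WT (log2 1.38 ± 0.198 SE, edgeR FDR 0.00298) and 2.57-fold in FosBcKO (1.36 ± 0.37, edgeR FDR 0.04). The Egr1KO change was as large, at 1.42, with a wider error of 0.482 and edgeR FDR 0.0759, and without 0 h replicate 1 it was 2.10 with edgeR FDR 0.0368. It was called by the edgeR exact test (FDR 0.0235), by DESeq2 (FDR 0.0075) and in one fit of all libraries (edgeR FDR 0.0336). With no filter on low counts it was not called (edgeR FDR 0.294). The FosBcKO call was lost without 0 h replicate 1 (edgeR FDR 0.1), without any 6 h library (edgeR FDR 0.173, 0.121 and 0.0523), and without 0 h replicate 2, where the log2 change was 0.996. That call was also lost in one fit of all libraries (edgeR FDR 0.0541).

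Nfkbie encodes IkB epsilon, a slower acting inhibitor. Nfkbie in WT was at 40.5, 36.5 and 33.3 CPM at 0 h and at 32.7, 29.2 and 23.3 CPM at 6 h, every 6 h library just under every 0 h library. Such a fall without overlap was seen in 19.8% of all genes tested. Egr1KO went from 33.3, 40.1 and 37.9 CPM to 74.4, 30.9 and 46.3 CPM, with replicate 2 at 6 h under all of its 0 h libraries. FosBcKO went from 16.4, 32.4 and 21.3 CPM to 35.9, 42.1 and 50.2 CPM, without overlap. None of these changes passed both thresholds: the log2 fold change was -0.47 ± 0.198 (SE) in WT (edgeR FDR 0.112), 0.52 ± 0.318 in Egr1KO (edgeR FDR 0.269) and 0.88 ± 0.248 in FosBcKO (edgeR FDR 0.0313, under 2-fold). Without FosBcKO 0 h replicate 2 the FosBcKO change was 1.09 and was called (edgeR FDR 0.0265). Set against Nfkbia in the same libraries, the WT capsules held 35.6 ± 7.36 (SD, n = 3) read pairs of Nfkbie per 100 of Nfkbia at 0 h and 9.59 ± 1.25 at 6 h. This ratio was 13.9 ± 1.61 in Egr1KO and 10.4 ± 3.23 in FosBcKO at 6 h. At 0 h it was 37.5 ± 25.6 and 18 ± 14.4. Times overlapped in this ratio in both knockouts and not in WT. At 0 h it was 13.7 in Egr1KO replicate 1, and 11 and 8.52 in FosBcKO replicates 1 and 3. The ratio was chosen after the values were seen and is given without a test.

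Nfkbiz encodes IkB zeta, a nuclear cofactor needed for a set of late inflammatory genes. Nfkbiz in WT was at 34.4, 16.9 and 15.4 CPM at 0 h and at 193, 126 and 181 CPM at 6 h. In FosBcKO it was at 32.0, 29.3 and 27.7 CPM and then at 394, 363 and 535 CPM. The lowest FosBcKO library at 6 h was above the highest WT library at 6 h. Egr1KO libraries held 20.2, 19.1 and 22.7 CPM at 0 h, a narrow range, and 766, 81.8 and 221 CPM at 6 h, the widest. Replicate 1 was the highest and replicate 2 the lowest of all 9 libraries at 6 h. The rise was 6.94-fold in WT (log2 2.80 ± 0.31 SE, edgeR FDR 0.00187), 18.4-fold in Egr1KO (4.20 ± 0.702, edgeR FDR 0.0124) and 14.5-fold in FosBcKO (3.86 ± 0.166, edgeR FDR 3.88e-06). The Egr1KO change was 2.91 without 6 h replicate 1 (edgeR FDR 0.00842), and its call was lost without any 0 h library (edgeR FDR 0.0602, 0.0526 and 0.0575).

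Bcl3 encodes a nuclear protein that binds dimers of the Nfkb1 and Nfkb2 products. It was the least abundant member by read pairs. Bcl3 in WT was at 5.26, 2.40 and 1.75 CPM at 0 h and at 15.1, 6.55 and 12.3 CPM at 6 h. Egr1KO libraries held 3.18, 0.384 and 1.25 CPM at 0 h, from 39, 4 and 12 read pairs, and 4.16, 5.77 and 5.56 CPM at 6 h. FosBcKO libraries held 1.87, 4.36 and 1.65 CPM and then 37.7, 24.7 and 12.1 CPM. Times did not overlap, but Egr1KO at 6 h lay under every other 6 h library and FosBcKO replicates 1 and 2 above every other. Bcl3 rose 9.52-fold in FosBcKO (log2 3.25 ± 0.473 SE, edgeR FDR 0.00479) and 3.32-fold in WT (1.73 ± 0.473, edgeR FDR 0.0317). In Egr1KO the change of 1.71 had an error of 0.668 and was not called (edgeR FDR 0.104), nor without 0 h replicate 1, where it was 2.69 (edgeR FDR 0.0592). DESeq2 (FDR 0.043) and one fit of all libraries (edgeR FDR 0.0486) called it. The WT call was lost without 0 h replicate 2 (edgeR FDR 0.0902), 0 h replicate 3 (edgeR FDR 0.0893) or 6 h replicate 1 (edgeR FDR 0.114).

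Tnfaip3 encodes a ubiquitin-editing enzyme that turns off signaling from cytokine and Toll-like receptors. Tnfaip3 in WT was at 100, 46.9 and 66.1 CPM at 0 h and at 278, 223 and 280.2 CPM at 6 h. Egr1KO libraries held 202, 59.6 and 115 CPM at 0 h and 379.6, 364 and 362 CPM at 6 h. FosBcKO libraries held 194, 58.3 and 250.1 CPM at 0 h and 261, 357 and 261 CPM at 6 h. The Egr1KO libraries at 6 h lay close together and above all other libraries of the series, while FosBcKO replicate 3 at 0 h was already near its 6 h level. Tnfaip3 rose 3.40-fold in WT (log2 1.77 ± 0.255 SE, edgeR FDR 0.00315) and 3.05-fold in Egr1KO (1.61 ± 0.38, edgeR FDR 0.0269). In FosBcKO the change of 0.81 ± 0.511 was not called (edgeR FDR 0.303), with an interval of 1.96 SE from -0.20 to 1.81. The Egr1KO call was lost without 0 h replicate 3 (edgeR FDR 0.103) or without any 6 h library (edgeR FDR 0.0731, 0.0806 and 0.077).

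Birc3 encodes a ubiquitin ligase of tumor necrosis factor receptor complexes that also restrains the kinase of the non-canonical branch. Birc3 in WT was at 9.86, 9.69 and 7.69 CPM at 0 h and at 29.6, 39.5 and 27.2 CPM at 6 h. Egr1KO libraries held 6.12, 4.61 and 6.87 CPM, then 49.7, 34.0 and 59.99 CPM. FosBcKO libraries held 5.44, 4.36 and 6.11 CPM, then 67.2, 91.0 and 41.4 CPM. All knockout libraries at 0 h lay under all WT libraries at 0 h, and all FosBcKO libraries at 6 h above all WT libraries at 6 h. The rise was 3.30-fold in WT (log2 1.72 ± 0.239 SE, edgeR FDR 0.00273), 8.53-fold in Egr1KO (3.09 ± 0.286, edgeR FDR 0.00113) and 12.6-fold in FosBcKO (3.66 ± 0.316, edgeR FDR 0.000467). These calls held when any library was left out.

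An interaction term over all 18 libraries tested whether a knockout changed with injury by more or less than WT did. The terms of both knockouts subtract the change of the same WT libraries, so they are not independent of each other. By the edgeR quasi-likelihood F-test 0 members were called in either knockout, as were 0% of the 17469 genes tested. At an unadjusted p under 0.05, 3 members of 10 differed in Egr1KO and 2 in FosBcKO, against 6.53% and 6.7% of all genes. Birc3 had the smallest p in both: its rise was larger than in WT by 1.35 ± 0.433 (SE) on the log2 scale in Egr1KO (edgeR FDR 0.694) and by 1.88 ± 0.434 in FosBcKO (edgeR FDR 0.375). Nfkbie was next in FosBcKO, at 1.30 ± 0.411 (edgeR FDR 0.523). Rel differed by -0.03 (interval -0.85 to 0.79) in Egr1KO and by 0.02 (-0.80 to 0.83) in FosBcKO, and Nfkbia by 0.02 (-1.21 to 1.26) and -0.07 (-1.31 to 1.16). Nfkbiz differed by 1.38 in Egr1KO (edgeR FDR 0.809) and by 0.14 without the Egr1KO 6 h replicate 1 library. DESeq2 called 0 members in Egr1KO, beside 0.0115% of genes with an adjusted p, and 1 in FosBcKO, beside 0.273%, which was Birc3 at 1.91 (DESeq2 FDR 0.0405). With no filter on low counts edgeR called 2 and 3 members beside 0.75% and 1.15% of all genes, among them Birc3 in both and, with a smaller change than in WT, Tnfaip3 in FosBcKO (-1.03, edgeR FDR 0.0279).

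Whether loss of either factor changed the genes in uninjured capsules was examined at 0 h with the edgeR exact test. Both knockouts were compared with the same WT libraries. Of the 10 members 0 were called in Egr1KO, where 0.41% of 14373 genes were, and 0 in FosBcKO, where 0.295% of 14556 were. The quasi-likelihood F-test called 0 in either as well, beside only 0.118% of all genes in Egr1KO and 0.0756% in FosBcKO. DESeq2 called 0 in either, beside 0.547% and 0.32%. At an unadjusted p under 0.05 there were 0 members in Egr1KO and 4 in FosBcKO, against 6.4% and 5.62% of all genes. Birc3 was lower by 0.60 ± 0.289 (SE, log2) in Egr1KO (edgeR exact test, FDR 0.863) and by 0.77 ± 0.298 in FosBcKO (edgeR exact test, FDR 0.82). The libraries did not overlap for 2 members in Egr1KO, Nfkb1 and Birc3, and for 3 in FosBcKO, Relb, Nfkbie and Birc3, each lower in the knockout, where 9.32% and 6.57% of all genes were lower without overlap. The largest positive difference was that of Tnfaip3 in FosBcKO, 1.25 ± 0.669 (edgeR exact test, FDR 0.926), with overlapping libraries. Without FosBcKO 0 h replicate 2 it was 1.67 and called (edgeR exact test, FDR 0.0039). Nfkbia in Egr1KO went from 0.42 to -0.25 without Egr1KO 0 h replicate 1, and Bcl3 in FosBcKO from -0.28 to 0.33 without WT 0 h replicate 1.

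At 6 h PCS, Nfkbiz and Birc3 were called higher in FosBcKO than in WT by the designed test, though not by every alternative. The edgeR exact test called these 2 of 10 members, both higher, where 5.41% of 16155 genes were called and 4.48% called higher. All 10 log2 fold changes were above 0, with a median of 0.57 against 0.00436 over all genes. The share of all genes above 0 was not recorded. With a single library left out, Nfkb1, Nfkb2, Rel and Relb fell as low as -0.14, -0.15, -0.20 and -0.12. Nfkbiz was at 431 ± 91.9 CPM in FosBcKO and 167 ± 35.8 CPM in WT (mean ± SD, n = 3), 2.83-fold higher (log2 1.50 ± 0.245 SE, edgeR exact test, FDR 7.54e-06). Birc3 was at 66.5 ± 24.8 CPM against 32.1 ± 6.54 CPM, 2.27-fold higher (1.18 ± 0.328, edgeR exact test, FDR 0.0238). By the quasi-likelihood F-test Nfkbiz was called (edgeR FDR 0.0163) and Birc3 was not (edgeR FDR 0.123). Neither was called with a replicate block (edgeR FDR 0.08 for Nfkbiz and 0.0846 for Birc3) or in one fit of all libraries (edgeR FDR 0.227 and 0.0537). Birc3 was also lost without WT 6 h replicate 1 (edgeR exact test, FDR 0.178), WT 6 h replicate 3 (FDR 0.125) or FosBcKO 6 h replicate 2, where the log2 change was 0.80 (FDR 0.246).

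The other members did not pass in FosBcKO at 6 h. Bcl3 differed by 1.25 ± 0.416 (SE, log2; edgeR exact test, FDR 0.0743), with WT replicate 1 at 15.1 CPM above FosBcKO replicate 3 at 12.1 CPM, and was called without FosBcKO replicate 3 (1.58, edgeR exact test, FDR 0.00174). Both inhibitors lay without overlap above WT, Nfkbia by 0.66 (edgeR exact test, FDR 0.17) and Nfkbie by 0.71 (edgeR exact test, FDR 0.137). Libraries did not overlap for 4 of the 10 members, all higher, beside 9.99% of all genes. Tnfaip3 differed by 0.32 (interval -0.15 to 0.79). Of the subunits, Nfkb2 differed by 0.10 (interval -0.50 to 0.71), Rel by 0.08 (-0.44 to 0.60), Relb by 0.29 (-0.44 to 1.01) and Nfkb1 by 0.49 (-0.35 to 1.33). Nfkb1 turned to -0.14 without FosBcKO 6 h replicate 2. That library was the highest of its group in 7 of 10 members and replicate 3 the lowest in 7.

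In Egr1KO at 6 h PCS the edgeR exact test called 0 of 10 members, where 0.736% of 15618 genes were called. DESeq2 called 0 members as well, beside 0.698% of genes. The quasi-likelihood F-test called 0% of all genes, so its count of 0 members tells nothing about them. At an unadjusted p under 0.05 there were 4 members, against 9.67% of all genes. Tnfaip3 was higher without overlap, at 369 ± 9.56 CPM against 260.1 ± 32.4 CPM (log2 0.72 ± 0.207 SE, edgeR exact test, FDR 0.188), where 3.17% of all genes were higher without overlap. Rel and Bcl3 were lower without overlap beside 13.8% of all genes, Bcl3 by 0.91 ± 0.365 (edgeR exact test, FDR 0.442). Nfkbie differed by 1.06 ± 0.352 (FDR 0.238), Birc3 by 0.79 ± 0.294 (FDR 0.363) and Nfkbiz by 1.36 ± 0.688 (FDR 0.52), each with overlapping libraries. Single libraries moved these values in both directions. Without Egr1KO 6 h replicate 2, Nfkbie (1.35, edgeR exact test, FDR 0.00402), Nfkbiz (1.85, FDR 0.00763) and Birc3 (1.03, FDR 0.0277) were called, while Nfkbiz stood at 0.098 without Egr1KO 6 h replicate 1. The share of all genes called without replicate 2 was not recorded, so whether these gains are particular to the members is not known.

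**Figure D3:**
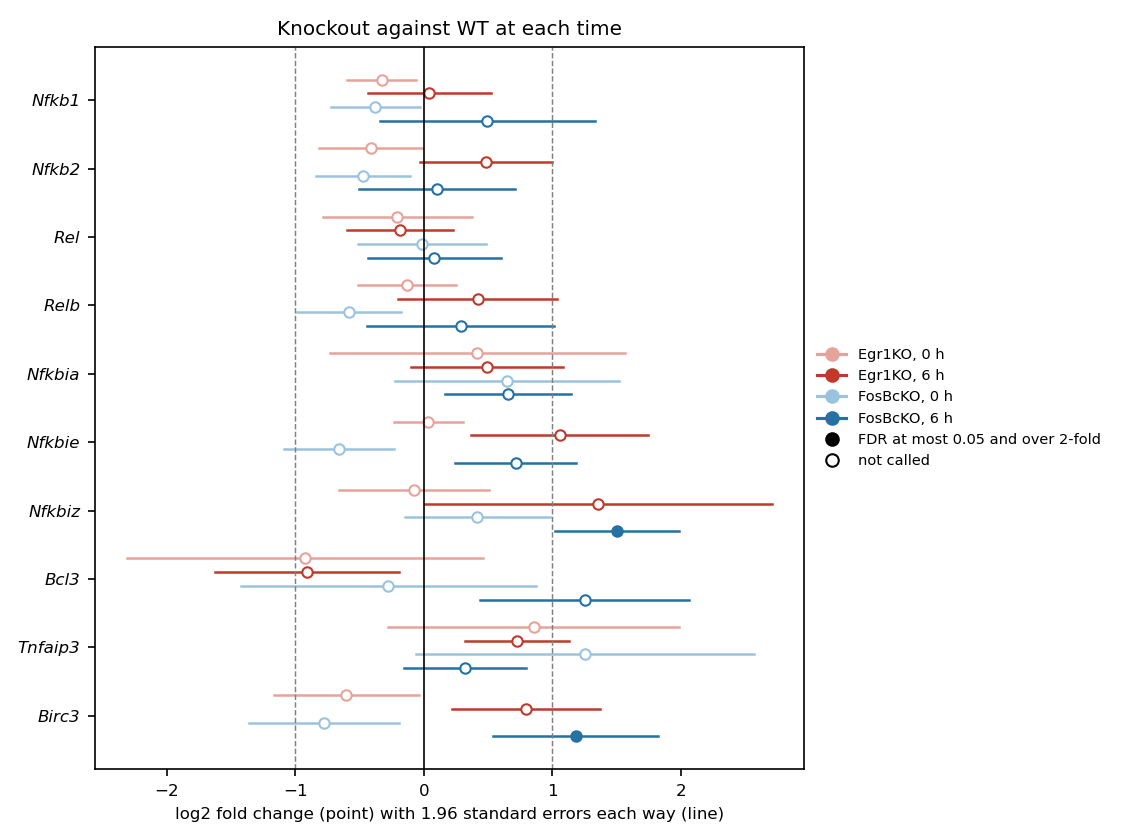
Each knockout against WT at 0 h (pale) and 6 h (dark), as the log2 fold change (point) with 1.96 standard errors each way (line); 3 libraries per group, and both knockouts are set against the same WT libraries. Filled points pass both thresholds: Nfkbiz at 1.50 and Birc3 at 1.18 in FosBcKO at 6 h. A line that does not cross 0 is not by itself a call.

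The replicates of a group were widely spread at 0 h in Nfkbia and Tnfaip3, and in both genes the same libraries were high or low. In each genotype replicate 2 was the lowest at 0 h in both genes. The highest was replicate 1 in WT, replicate 1 in Egr1KO and replicate 3 in FosBcKO, again in both. Tnfaip3 at 0 h ranged from 46.9 to 250.1 CPM over the 9 libraries and Nfkbia from 62.2 to 250.3 CPM. Pairs outside annotated genes made up 18.46%, 13.49% and 20.89% of read pairs in the replicate 2 libraries of WT, Egr1KO and FosBcKO, and 19.76%, 9.089% and 8.034% in the libraries with the highest Nfkbia and Tnfaip3. Their part in the levels was not tested.

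**Figure D4:**
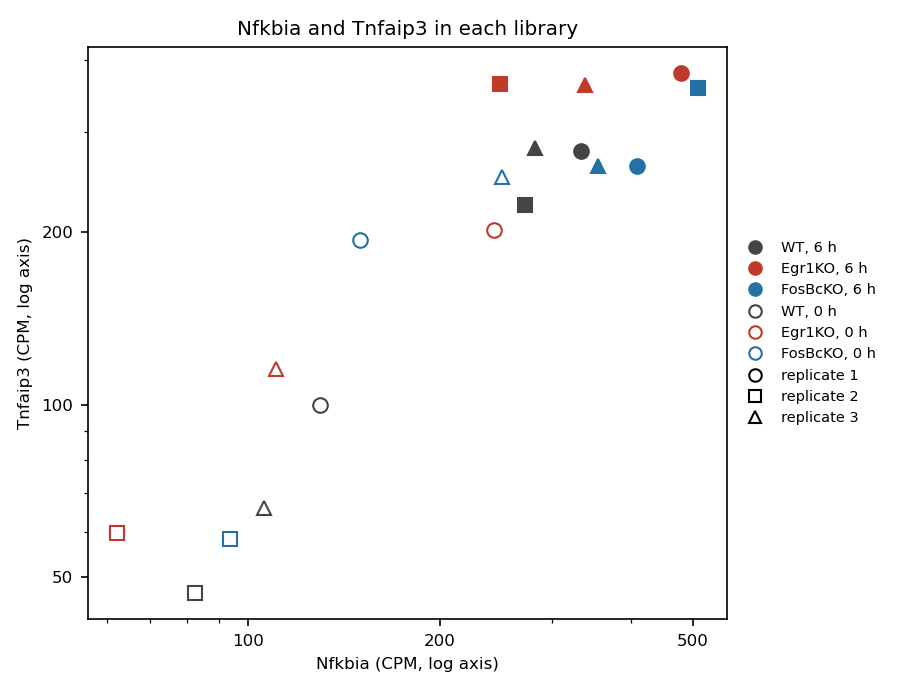
Nfkbia against Tnfaip3 in each of the 18 libraries, in CPM on log axes. Open symbols are 0 h and filled symbols 6 h libraries, with color for genotype and shape for replicate number. The replicate 2 libraries at 0 h lie lowest on the Tnfaip3 axis, from 46.9 to 59.6 CPM, and FosBcKO replicate 3 at 0 h lies highest of the 0 h libraries on both axes.

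The order of the 6 group means differed between genes. For Nfkbia, Nfkbiz and Birc3 the order at 6 h was FosBcKO, Egr1KO and then WT, but the libraries of neighbouring groups in that order overlapped. Tnfaip3 was led by Egr1KO at 6 h, whose libraries lay above those of the next group, FosBcKO at 6 h. Rel was led by WT at 6 h at 50.4 ± 5.82 CPM (SD, n = 3), overlapping FosBcKO at 48.7 ± 13.5 CPM. Nfkbie was the only member whose WT 6 h group ranked below a 0 h group of WT and of Egr1KO. For Relb the libraries of every pair of neighbouring groups overlapped.

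Among the members the pattern over the 18 libraries most like that of Nfkbia was that of Tnfaip3, with a root mean square difference of 0.358 between standardized log2(CPM + 0.5) profiles. Rel followed at 0.416, Nfkbiz at 0.499, Birc3 at 0.548, Bcl3 at 0.682, Nfkb2 at 0.732, Nfkb1 at 0.866 and Relb at 0.876. Nfkbie was farthest at 1.21. Genes outside the list that lay closer to Nfkbia numbered 12 for Tnfaip3, 64 for Birc3, 464 for Nfkb2 and 1651 for Relb. The median over 17791 genes with at least 10 read pairs in at least 3 libraries was 1.35. The nearest genes outside the list were ENSMUSG00000052837, at 0.287, and ENSMUSG00000032515, at 0.288. ENSMUSG00000052837 averaged 63.4 CPM over the 0 h libraries and 620.5 CPM over the 6 h libraries, and ENSMUSG00000032515 averaged 47.1 and 185 CPM. These values describe likeness across libraries that share the injury contrast, and no test was made.

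The shape of the change also differed within the subunit family. Nfkb2 read pairs per 100 of Nfkb1 went from 61.5 ± 10.1 (SD, n = 3) at 0 h to 102 ± 18 at 6 h in WT, from 57.4 ± 7.06 to 146 ± 36.8 in Egr1KO and from 58.8 ± 7.53 to 92.9 ± 32.8 in FosBcKO. FosBcKO overlapped between times, and WT and Egr1KO did not. Relb read pairs per 100 of Nfkb2 went from 78.1 ± 20.9 to 39 ± 16.9 in WT, from 93.6 ± 6.42 to 34.9 ± 6.69 in Egr1KO and from 71.4 ± 15.9 to 40.5 ± 6.15 in FosBcKO, without overlap in each genotype. Read pairs of different genes depend on transcript length, so a ratio is read across groups and not as a relation between the genes' levels. These ratios were chosen after the values were seen and were not tested. In the RefSeq gene table (GRCm38.p6) Relb and Bcl3 lie on the same chromosome with 10 protein-coding genes starting between them. The spans of Nfkb1, Nfkb2 and Bcl3 from start to end overlap another RefSeq gene, on either strand. In union mode, read pairs that overlap the counted features of 2 genes are not counted for either. Overlap of exons was not examined, so whether these members lost read pairs is not known.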

How the data were processed

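Stranded, ribodepleted, paired-end libraries of lens capsule RNA were aligned by the authors with Hisat2, and HTSeq-count (union mode) assigned read pairs to Ensembl genes. The deposited counts are raw, without normalization. The study's methods name GRCm38 and the submitters' processing notes name GRCm39, so no coordinates are given. Whether the counting used strand is not given in the sources used here. HTSeq's summary lines were left out: pairs outside genes (8.034% to 30.47% per library), ambiguous (0.9404% to 1.366%), of low quality (2.758% to 3.835%), not aligned (8.253% to 18.01%) and not unique (3.798% to 5.414%). Library totals of 9609295 to 13871592 pairs set the precision, and without molecular identifiers PCR copies are counted separately.

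Groups and replicate numbers came from the labels. Counts were filtered with filterByExpr and scaled by TMM, with robust dispersions, in edgeR 4.0.16 (R 4.3.3). The quasi-likelihood F-test compared 6 h with 0 h, the exact test each knockout with WT, on the 6 libraries of a contrast, and the interaction used all 18 libraries. FDR is Benjamini-Hochberg over all genes tested. SE comes from the quasi-likelihood fit, and intervals are 1.96 SE each way. With 3 libraries a group such intervals are narrow and can leave out 0 where the test does not pass. For Nfkb1 in Egr1KO against WT at 0 h the interval was -0.60 to -0.06, with an unadjusted p of 0.0816 by the edgeR exact test. Alternatives were the other edgeR test, DESeq2 1.42.0, RLE size factors, other filters, no robust option, no fold minimum, a replicate block, one fit of all libraries and leaving out each library. For some of the comparisons the tests were tried on simulated counts of independent libraries with 200 changed genes. Such a trial does not measure how reliable the calls in these data are.

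All 10 members are named by rule. The members, lists and tests were chosen with earlier results of these data known. The members' symbols came with the list of IDs. The RefSeq table matched 0 of the 55416 IDs, so Rela, Egr1, Fosb, the planned lists of other pathway genes and the cell type markers are not analysed here. Of the genes most like Nfkbia, 2 IDs are printed of the 5 planned. Same-numbered WT libraries at 0 h and 6 h deviated together from their group means (correlations 0.107 to 0.265), and the study's operation of both eyes of each mouse gives a possible pairing. A replicate block left the WT count at 7, beside 19.1% of all genes called.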

Additional observations from a re-analysis of the deposited data

Results flagged for a closer look

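Read pairs outside annotated genes, which no comparison used, made up a larger share at 6 h PCS than in the 0 h controls of the same genotype. The mean share was 17.8% ± 2.37 (SD, n = 3) at 0 h and 25.44% ± 1.87 at 6 h in WT, 11.19% ± 2.21 and 21.49% ± 2.19 in Egr1KO, and 13.15% ± 6.81 and 26.27% ± 3.72 in FosBcKO. In FosBcKO the 0 h replicate 2 library, at 20.89%, was the closest to the lowest 6 h library, at 23.39%. This difference was not tested.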

How the results depend on the processing

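The count of members called changed with single libraries and with the test. Leaving out each library in turn gave 3 to 6 in Egr1KO at 6 h against 0 h (as designed 7), 0 to 1 in FosBcKO against WT at 0 h (0), 0 to 3 in Egr1KO against WT at 6 h (0) and 1 to 3 in FosBcKO against WT at 6 h (2). The other ranges were 6 to 8 in WT (7) and 6 to 7 in FosBcKO (8) at 6 h against 0 h, and 0 in Egr1KO against WT at 0 h and in both interactions. The share of all genes called was not recorded with a library left out, so these ranges have no background beside them. For FosBcKO against WT at 6 h, the quasi-likelihood F-test called 1 member, beside 2.71% of all genes. The same test with a replicate block called 0, beside 0.532%, and one fit of all libraries 0, beside 1.65%. As designed the share was 5.41%. Nfkbiz there had edgeR FDR 0.08 with the block and 0.227 in one fit of all libraries, and Birc3 0.0846 and 0.0537. With no filter 2 members were called in the Egr1KO interaction (0.75% of all genes) and 3 in the FosBcKO interaction (1.15%). DESeq2 called 1 in the FosBcKO interaction (0.273% of genes with an adjusted p). The cause was not tested.

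Every change of sign was among differences called in neither setting. Leaving out each library, log2 differences from WT at 0 h in Egr1KO ran from -0.62 to 0.0325 (Rel), -0.23 to 0.017 (Relb), -0.25 to 0.78 (Nfkbia), -0.041 to 0.11 (Nfkbie) and -0.29 to 0.37 (Nfkbiz), and in FosBcKO from -0.26 to 0.18 (Rel) and -0.81 to 0.33 (Bcl3). At 6 h Nfkb1 ran from -0.084 to 0.23 in Egr1KO, and in FosBcKO the ranges were -0.14 to 0.85 (Nfkb1), -0.15 to 0.36 (Nfkb2), -0.20 to 0.28 (Rel) and -0.12 to 0.55 (Relb). The Egr1KO interaction ran from -0.27 to 0.38 (Rel), -0.34 to 0.69 (Nfkbia), -0.64 to 0.94 (Bcl3) and -0.53 to 0.32 (Tnfaip3), and the FosBcKO interaction from -0.26 to 0.26 (Rel) and -0.39 to 0.39 (Nfkbia). With the replicate block Nfkbiz was 0.0084 in Egr1KO against WT at 0 h, Bcl3 0.064 in the Egr1KO interaction and Nfkbia 0.00084 in the FosBcKO interaction, and with no filter Rel was 0.017 in the Egr1KO interaction.

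Over 1550 values of members under an alternative, 1437 kept their direction and their side of the threshold. Of the rest, 39 lost a call, 22 gained one and 52 changed sign. Most of the 1550 belong to results not called as designed, which keep their side by staying uncalled. The 1437 therefore does not measure how stable the calls are. Calls were lost 8 times among the 2 members called in FosBcKO against WT at 6 h, each with 15 alternatives. For 6 h against 0 h, losses numbered 15 for Egr1KO (7 members called), 13 for FosBcKO (8 called) and 3 for WT (7 called). Outside WT the replicate numbers were not taken as pairs. Correlations of same-numbered libraries were above 0.1 in 1 of 3 pairs in Egr1KO and 2 of 3 in FosBcKO between times. Between genotypes they were above 0.1 in 0 or 1 of 3. With the block, Nfkbia was gained in Egr1KO (edgeR FDR 0.00631, count 8) and lost in FosBcKO (edgeR FDR 0.0979, count 7). The shares of all genes called with the block were 11.2% and 16%. With 3 libraries a group and as few as 4 read pairs, differences in Bcl3 are the least certain.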
